A study of Xenopus laevis with 12 samples.

Results

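The genes described here are the 192 gene IDs whose level was lower in every barhl1 morpholino library than in every control library from the rhombomere 1 of Xenopus laevis tadpoles. They are 192 of 44478 IDs in the files, and of the 23672 IDs with a mean of at least 1 CPM over the 12 libraries. CPM is the count of an ID divided by the library's total count, times 1000000. An ID was taken when its highest CPM in the 8 knock-down libraries was below its lowest CPM in the 4 control libraries. The members were thus chosen by their measured CPM in this same contrast, so their difference from the controls is described below and supports nothing.

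Rhombomere 1 is the most anterior segment of the hindbrain and the source of the cerebellum. Its dorsal edge, the upper rhombic lip, is a germinal zone that expresses the transcription factor Atoh1 and gives rise to granule cells, the small excitatory neurons of the cerebellum. Barhl1 is a homeodomain transcription factor of this lineage. According to the submitters it is a direct target of Atoh1 and restrains T-cell factors, the DNA-binding partners through which Wnt signalling acts on its targets.

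RNA levels were read by sequencing in 3 groups of 4 libraries, all from dissected rhombomere 1. The first group, labelled MOBarHl1_1 and called KD_1 here, and the second, labelled MOBarHl1_2 and called KD_2, had each received a different morpholino against barhl1. The Control group had received the control morpholino, labelled MO Control (Ct). A morpholino is an antisense oligonucleotide that blocks the translation or splicing of its target RNA. The labels give tadpole stage 41 for every library, whereas the design text gives stage 42 and 3 replicates per condition, each a pool of 3 rhombomeres, after injection into 2 dorsal blastomeres of 4-cell embryos. The 4 libraries per group and the stage were taken from the labels. Nothing says which libraries came from separate clutches, so p-values measure the spread between these libraries only. The files do not pair the gene IDs with names, and 0 of them matched the RefSeq gene table of assembly Xenopus_laevis_v10.1, so barhl1 itself, the cell type markers and the pathway of each member are not reported. The IDs of the members with the widest gap and the highest level are printed, and the other members are given by their rank.

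Library totals ran from 24973125 to 29433422 counts in the knock-down libraries and from 23278184 to 28681144 in the Control libraries. Some libraries were no nearer to their own group than to the other side. Control replicate 1, which also had the lowest total, had a mean Spearman correlation of 0.989 with the 8 knock-down libraries and 0.987 with the other 3 Control libraries. KD_1 replicate 3 went the other way, with 0.986 for the other knock-down libraries and 0.989 for the Control libraries, and KD_2 replicate 1 had 0.988 for both sides. Control replicate 1 and KD_1 replicate 3 were kept under their labels, and some of the results below are also given without 1 or both of them.

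The 192 members made up 0.811% of the 23672 IDs, and 231 IDs, 0.976%, lay higher in every knock-down library than in every Control library. Summed over the members, levels were 5526 to 6241 CPM in the KD_1 libraries and 5520 to 6222 CPM in the KD_2 libraries, against 7003 to 7983 CPM in the Control libraries. The members thus took 0.552% to 0.624% of all counts in the knock-down libraries and 0.700% to 0.798% in the Control libraries. In bulk tissue, fewer cells of a type and less RNA per cell cannot be told apart as the source of such values.

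**Figure D1:**
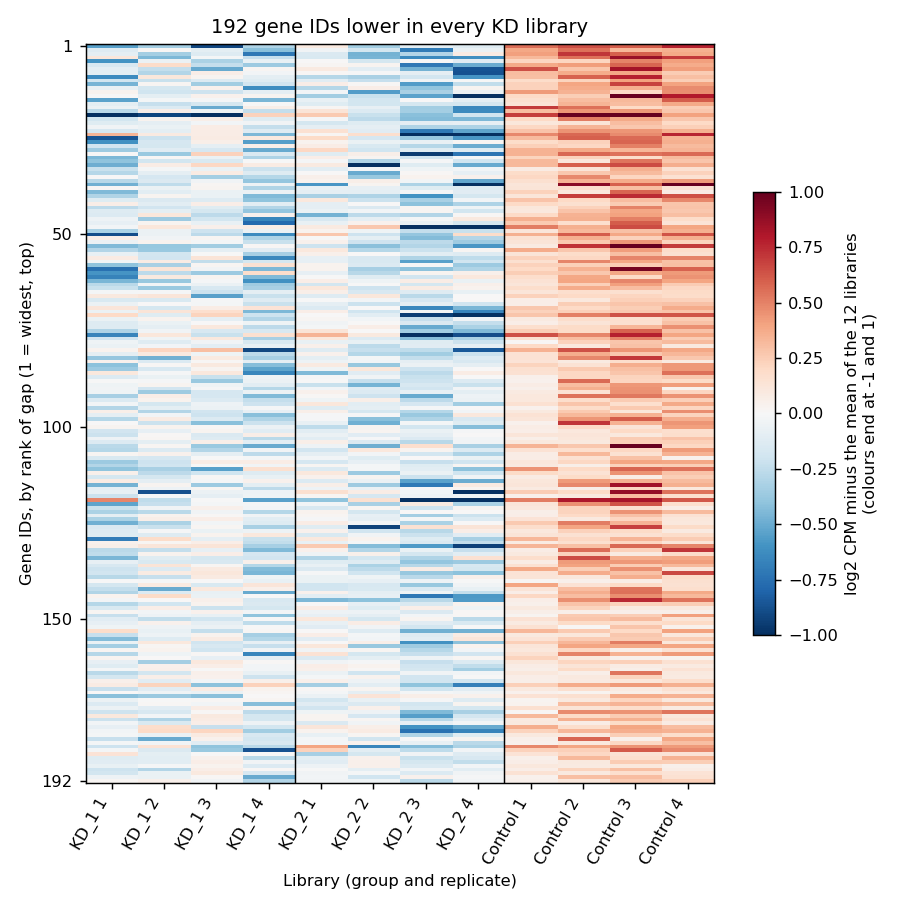
Level of each of the 192 IDs (rows, ordered by the width of the gap) in the 12 libraries (columns), as log2 CPM minus the mean over the libraries. Blue is lower and red higher than that mean, and the Control replicate 1 column is the palest of the 4 Control columns.

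Most gaps between the groups were narrow. The lowest Control CPM divided by the highest knock-down CPM had a median of 1.03 over the members and reached 1.38 at most. It was at least 1.05 for 60 members, at least 1.1 for 22 and at least 1.2 for 3. Just inside the limit, the narrowest 3 gaps had ratios between 1.00009 and 1.00023, and just outside it the nearest 3 IDs had ratios between 0.999692 and 0.999998. There were 132 IDs within a ratio of 1.05 inside the limit and 576 IDs between 0.95 and 1 outside it. At the limit on level, the lowest member averaged 1.03 CPM, and the highest ID with such a gap that fell under the limit averaged 0.999 CPM.

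The widest gap belonged to XBXL10_1g30645. It was at 1.23, 1.41, 0.947 and 1.44 CPM in KD_1 replicates 1 to 4 and at 1.90, 1.40, 1.67 and 1.63 CPM in KD_2 replicates 1 to 4, against 2.62, 2.79, 2.72 and 3.05 CPM in Control replicates 1 to 4. By the rule, all 8 knock-down libraries lay below the 4 Control libraries. No Control library was far from the others. The group means were 1.26 ± 0.226 CPM in KD_1, 1.65 ± 0.204 CPM in KD_2 and 2.79 ± 0.182 CPM in Control (SD, n = 4 each). The fitted log2 fold change was -1.13 (SE 0.21) for KD_1 against Control and -0.73 (SE 0.20) for KD_2 against Control. With Control replicate 1 left out of the fit, these values were -1.16 and -0.75. This ID is scarce: the gap rested on 51 counts in KD_2 replicate 1, a counting interval of 1.41 to 2.50 CPM, against 61 counts in Control replicate 1, an interval of 2.00 to 3.37 CPM (exact Poisson, 95%, counting error only).

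Next in width came a member at 7.43, 8.21, 7.62 and 6.09 CPM in KD_1 and 7.93, 7.14, 5.005 and 7.75 CPM in KD_2, against 10.7, 11.9, 10.2 and 10.4 CPM in Control. KD_2 replicate 3 was its lowest library, and its knock-down groups overlapped each other. The member with the third-widest gap was at 2.45, 2.07, 2.40 and 1.60 CPM in KD_1 and 2.38, 1.89, 2.14 and 2.79 CPM in KD_2, against 3.48, 4.31, 3.97 and 3.42 CPM in Control. Here, too, the KD_1 and KD_2 values overlapped. Neither of these gaps had Control replicate 1 as its lowest Control library.

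Highest in level among the members was XBXL10_1g34450. It was at 678, 694, 653 and 545 CPM in KD_1 and at 653, 650, 554 and 655 CPM in KD_2, against 694, 718, 798 and 790 CPM in Control. Its group means were 642 ± 67.0 CPM in KD_1, 628 ± 49.3 CPM in KD_2 and 750 ± 52.1 CPM in Control (SD, n = 4 each). Its gap was also the narrowest of the 192, with 693.547 CPM in KD_1 replicate 2 just under 693.611 CPM in Control replicate 1, and it closed when counts were scaled by TMM (695.911 and 695.203 CPM) but not with DESeq2 size factors (693.932 and 695.264 CPM). The fitted log2 fold change was -0.20 (SE 0.09) for KD_1 against Control and -0.23 (SE 0.09) for KD_2 against Control.

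The second-highest level was 424, 402, 430 and 341 CPM in KD_1 and 399, 397, 387 and 386 CPM in KD_2, against 459, 476, 518 and 464 CPM in Control. In this member the gap was wider than the counting error, with an interval of 422 to 438 CPM for KD_1 replicate 3 and of 451 to 468 CPM for Control replicate 1. The third-highest was at 324, 339, 332 and 290 CPM in KD_1 and 317, 291, 315 and 295 CPM in KD_2, against 354, 400, 410 and 414 CPM in Control. Control replicate 1 was the Control library nearest to the knock-down groups in both.

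A different shape was seen in the member with the fourth-highest level, which was at 285, 276, 290 and 276 CPM in KD_1 and 273, 272, 255 and 284 CPM in KD_2, against 293, 294, 294 and 293 CPM in Control. The Control libraries were almost level (SD 0.533 CPM, n = 4), and the fold change was the smallest of all members, with a log2 value of -0.06 (SE 0.05) for the mean of both morpholinos against Control. In the member with the eighth-highest level, the knock-down libraries ran widely apart, at 202, 121.3, 144 and 99.3 CPM in KD_1 and 109, 161, 64.1 and 70.0 CPM in KD_2, against 206, 253, 256 and 221 CPM in Control. KD_2 replicates 3 and 4 were its lowest libraries and KD_1 replicate 1 came close to Control replicate 1.

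**Figure D2:**
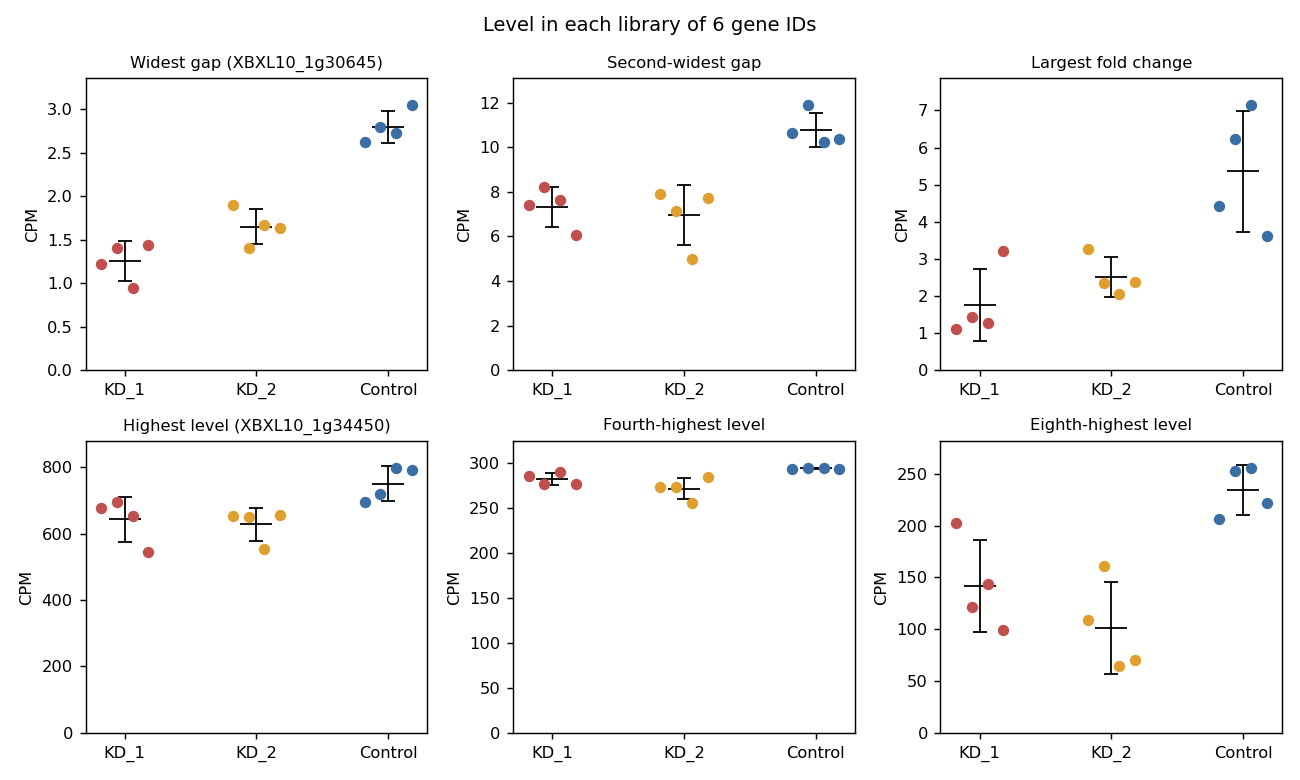
CPM of 6 members in each library (points, in replicate order from left to right), with the group mean (bar) and SD (whiskers, n = 4), for KD_1, KD_2 and Control, each axis starting at 0. By the rule, every knock-down point lies below every Control point. For XBXL10_1g30645 the gap is the widest of all members, though its counting intervals overlap, while for XBXL10_1g34450 it is too narrow to see.

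For the mean of both morpholinos against Control, the largest fold change was that of a member at 1.11, 1.45, 1.28 and 3.20 CPM in KD_1 and 3.27, 2.34, 2.04 and 2.38 CPM in KD_2, against 4.42, 6.24, 7.15 and 3.61 CPM in Control. KD_1 replicate 4 was far above the other KD_1 libraries and close to Control replicate 4. The log2 fold change was -1.59 (SE 0.32) for KD_1 against Control and -1.06 (SE 0.31) for KD_2 against Control. Only 1 other member had a log2 fold change below -1 for the mean of both morpholinos. That member was at 4.27, 4.46, 4.55 and 5.85 CPM in KD_1 and 5.02, 4.35, 4.73 and 3.87 CPM in KD_2, against 6.19, 9.60, 13.0 and 9.40 CPM in Control. Its Control libraries were spread more widely than both knock-down groups, and Control replicate 1 was the lowest of them.

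Over the 192 members the median log2 fold change was -0.37 for KD_1 against Control and -0.36 for KD_2 against Control, with medians of 0.00083 and -0.01 over the 26712 IDs tested. The comparisons share the Control libraries. For the mean of both against Control the members had values from -1.32 to -0.06, and 147 of them lay between -0.5 and 0. In edgeR's quasi-likelihood test of that mean, 4 members passed an adjusted p of 0.05, where 5 IDs, 0.0187% of those tested, were called lower. In either direction 9 IDs, 0.0337%, were called, and the shares given below for other settings are also in either direction. With an unadjusted p under 0.05 there were 180 members, and 21.1% of all tested IDs had such a p in either direction. Because the same contrast chose the members, nothing is read from these counts. They also depended on single libraries: without Control replicate 1 the adjusted count was 98 members, with 9.86% of all IDs called in either direction, while it was 0 without Control replicate 2, 3 or 4 or without KD_2 replicate 3, where at most 1 ID was called in all. It was 33 without KD_2 replicate 1 (0.344% of all IDs) and 7 without KD_1 replicate 4 (0.0481%). It was 1 without KD_1 replicate 1 (0.0037%), 1 without KD_2 replicate 2 (0.0148%) and 2 without KD_1 replicate 2 (0.0148%). Without KD_1 replicate 3 it stayed at 4 (0.0667%), and without KD_2 replicate 4 it was 3 (0.0185%). For the single morpholinos, 0 members passed with KD_1 (154 at an unadjusted p under 0.05, beside 15.1% of all IDs) and 1 with KD_2 (156, beside 20.6%). With edgeR no ID was called with KD_1. With KD_2, 0.00749% of all IDs were called lower and 0.0112% were called in either direction. The counts differed by tool and by library: 62 members passed with KD_1 (1.48% of all IDs) and 74 with KD_2 (4.27%) in DESeq2, and 0 with either in limma-voom. Without Control replicate 1, edgeR called 42 members with KD_1 (2.01% of all IDs) and 65 with KD_2 (7.36%).

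The 4 members called in the mean comparison had log2 fold changes of -1.02 (SE 0.15), -0.89 (SE 0.12), -0.81 (SE 0.12) and -0.42 (SE 0.07). Their adjusted p in edgeR was 0.0392, 0.0362, 0.0392 and 0.0469 in the same order. The last was at 23.9, 21.7, 22.6 and 25.4 CPM in KD_1 and 23.5, 22.4, 22.6 and 22.5 CPM in KD_2, against 28.1, 32.3, 31.7 and 33.2 CPM in Control. Its KD_2 libraries were the most alike, with an SD of 0.493 CPM (n = 4), and Control replicate 1 was its lowest Control library. The second of the 4 was at 9.88, 6.69, 9.04 and 7.77 CPM in KD_1 and 8.22, 6.61, 5.89 and 5.98 CPM in KD_2, against 11.5, 13.4, 16.6 and 14.9 CPM in Control. In the fit of all 12 libraries it was the member that passed in KD_2 against Control (log2 fold change -1.05, SE 0.15, adjusted p = 0.0355 in edgeR). The number of members passing there was 0 with only KD_2 and Control fitted, with a replicate block or in limma-voom (0% of all IDs). It was 3 without a filter on low counts (0.0161%), 74 in DESeq2 (4.27%) and 0 to 65 with 1 library left out (0% to 7.36%).

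The median level of the members was 15.1 CPM, with 6.13 and 33.4 CPM as quartiles, against 16.5, 5.98 and 39.6 CPM for all 23672 IDs. Between 1 and 10 CPM there were 73 members, 0.845% of the IDs at that level. From 10 to 100 CPM there were 109, or 0.831%, and at 100 CPM or more there were 10, or 0.523%. The median log2 fold change of the mean comparison was -0.46, -0.32 and -0.28 in these classes. The rule chose the members by this same contrast, and how level bears on these medians was not tested. Exact 95% Poisson intervals of the lowest Control and the highest knock-down library were apart for 5 members, all with a mean of at least 68.6 CPM, and overlapped for the other 187. An overlap of such intervals does not show that the values did not differ.

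**Figure D3:**
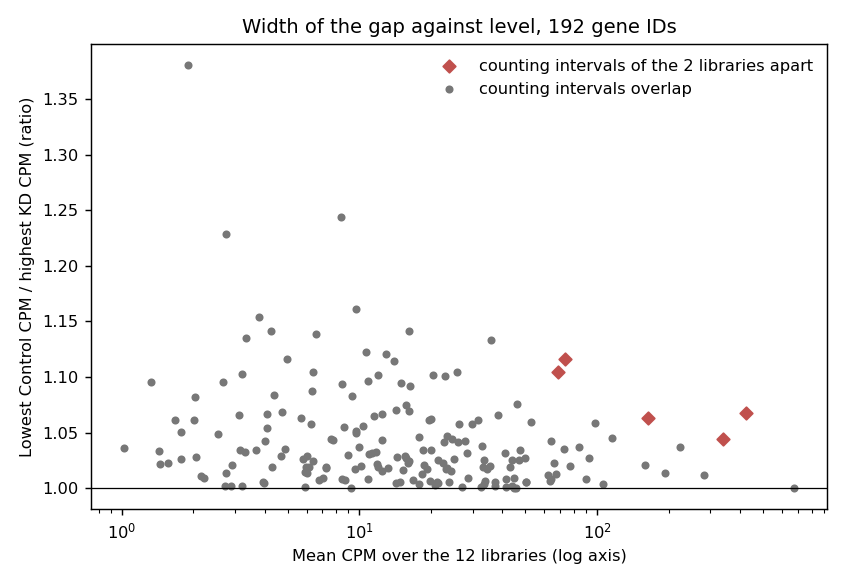
Width of the gap (lowest Control CPM over highest knock-down CPM, a ratio) against mean CPM on a log axis for the 192 members, with the 5 members whose counting intervals were apart as red diamonds. The widest gap, 1.38, is at 1.90 CPM, and all red diamonds are at 68.6 CPM or more.

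A single Control library set most of the gaps. Control replicate 1 was the lowest Control library in 63.0% of the members, against 28, 14 and 29 members for Control replicates 2, 3 and 4. Control replicate 3 was the highest in 98. On the knock-down side, KD_1 replicate 3 was the highest library in 49 members and KD_2 replicate 1 in 46, together 95 of the 192. KD_1 replicate 4 and KD_2 replicate 3 were the lowest in 40 and 39. Within its group, Control replicate 1 had a median log2 difference from the other Control libraries of -0.12 over the members and -0.01 over all 23672 IDs. Other libraries had differences of similar size within their groups over the members. These were 0.11 for KD_2 replicate 1 and KD_1 replicate 3, -0.10 for KD_2 replicate 3 and 0.09 for Control replicate 3. The remaining libraries lay between -0.07 and 0.04.

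Leaving out a library can only loosen the rule, and it did so unequally. Without Control replicate 1 the rule took 1836 IDs, 7.76% of the 23672, and the number higher in every knock-down library became 1610. Without KD_1 replicate 3 it took 432 IDs, without KD_2 replicate 1 346, and without any other single library 210 to 289. With both Control replicate 1 and KD_1 replicate 3 left out, a choice made after seeing the data, it took 2961. Of the 1836 IDs taken without Control replicate 1, that library lay below the knock-down mean in 824. It lay above all 8 knock-down libraries in 192 (10.5%), which are the members by definition. Its median position was 0.04 on a scale with 0 at the knock-down mean and 1 at the mean of the other Control libraries. This list required only the other Control libraries to lie above every knock-down library, so the choice itself sets them apart from Control replicate 1. The other Control libraries, each placed on the IDs taken without it, had median positions of 0.75, 1.16 and 0.78. Their lists all required Control replicate 1 to lie above every knock-down library. KD_1 replicate 3 was at 0.68 on its list and KD_2 replicate 1 at 0.54, while the other knock-down libraries were at -0.17 to 0.22. What sets these libraries apart was not tested.

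**Figure D4:**
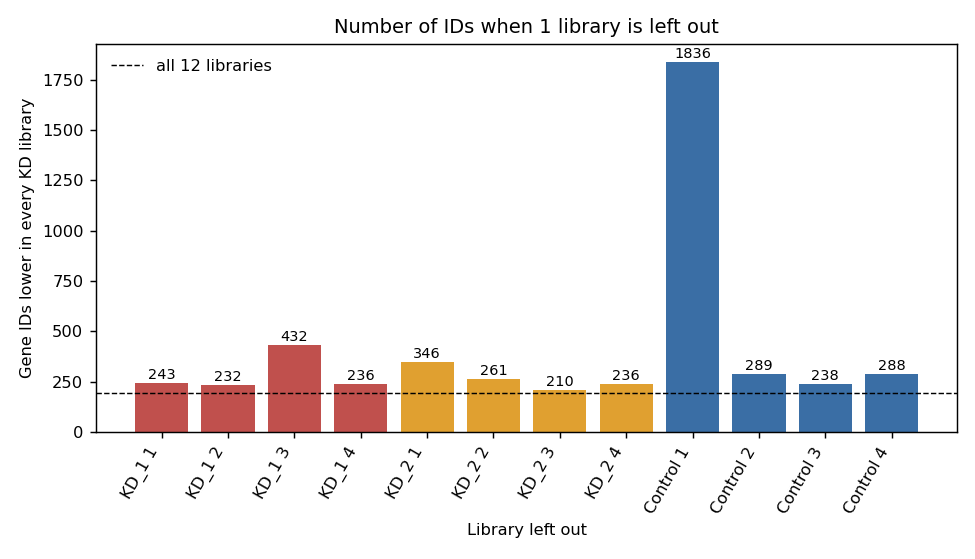
Number of IDs lower in every knock-down library when the library on the horizontal axis is left out, with the 192 IDs of all 12 libraries as a dashed line (KD_1 in red, KD_2 in orange, Control in blue). The bar for Control replicate 1 reaches 1836, and all others are between 210 and 432.

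With Control replicate 1 left out of the fit, the median log2 fold change of the 192 members was -0.40 for KD_1 against Control and -0.37 for KD_2 against Control. This is close to the values with all libraries. By the rule, Control replicate 1 lay above every knock-down library in each member. The rule also bears on the members' spread within groups. Between 1 and 10 CPM the median SD of log2(CPM + 0.5) was 0.19 in KD_1, 0.17 in KD_2 and 0.13 in Control for the members, against 0.21, 0.23 and 0.20 for the other IDs at that level. At 100 CPM or more it was 0.14, 0.09 and 0.10 for the 10 members, against 0.13, 0.12 and 0.11 for the other IDs, so there the KD_1 spread was not the smaller one.

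The rule did not set the morpholinos against each other and put no lower bound on either. It did hold the CPM of all 8 knock-down libraries below every Control library, so these values were part of the choice. The difference between KD_1 and KD_2 is therefore a description, and nothing is read from the members' counts in it. KD_1 over KD_2 had a median log2 fold change of -0.01 over the members, with quartiles of -0.09 and 0.09 and a range of -0.52 to 0.50. Over all tested IDs with a mean of at least 1 CPM the median was 0.00 and the quartiles were -0.10 and 0.10. Of the members, 94 were higher in KD_1 and 98 higher in KD_2. None of the 192 passed an adjusted p of 0.05 in edgeR's quasi-likelihood test, DESeq2 or limma-voom, and the smallest edgeR adjusted p was 0.649. Of all 26712 IDs tested, 0% passed in edgeR and in limma-voom and 0.0412% in DESeq2. The share at an unadjusted p under 0.05 was 12 members, or 6.25%, 6 in each direction, against 7.35% of all 26712 IDs tested. The median SE of this difference was 0.11 on the log2 scale.

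**Figure D5:**
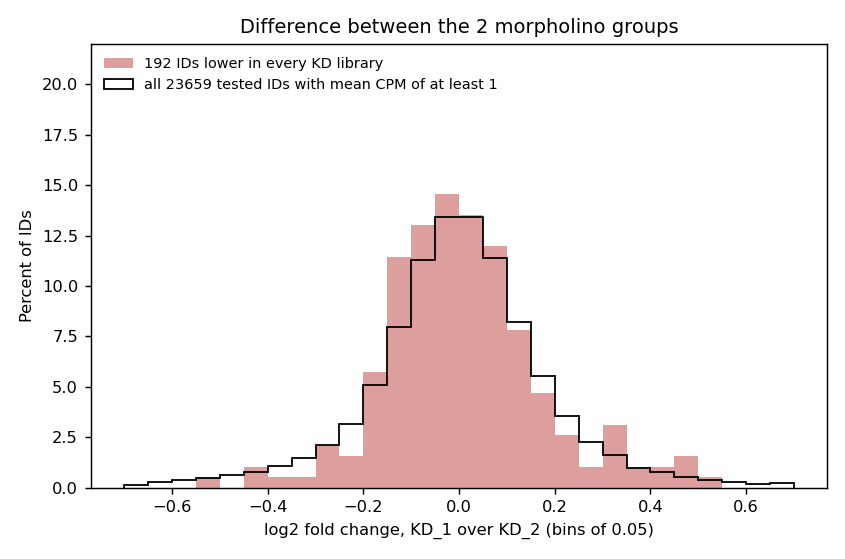
Log2 fold change of KD_1 over KD_2 (bins of 0.05) for the 192 members (filled) and for all 23659 tested IDs with a mean of at least 1 CPM (line), in percent of IDs, with 526 of the latter outside the axis. Both distributions are centred near 0.

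In 4 members all KD_1 libraries lay above all KD_2 libraries, or 2.08% beside 1.93% of the 23672 IDs, and in 0 members all KD_1 libraries lay below, beside 1.09%. The member with the largest such difference was at 4.64, 4.34, 4.77 and 4.73 CPM in KD_1 and 3.65, 3.97, 3.20 and 2.17 CPM in KD_2, with 5.33, 5.50, 9.20 and 8.05 CPM in Control. Its log2 fold change of KD_1 over KD_2 was 0.50 (SE 0.20), with an adjusted p of 0.652 in edgeR. Another was at 5.68, 5.79, 5.98 and 5.17 CPM in KD_1 and 4.24, 4.35, 4.77 and 3.91 CPM in KD_2, with 6.06, 7.96, 9.76 and 8.43 CPM in Control. It differed by 0.38 (SE 0.14) on the log2 scale, with an adjusted p of 0.649 in edgeR. In both, KD_2 was the group farther from Control, which follows from how they were picked, and neither difference passed. For XBXL10_1g30645 the log2 fold change of KD_1 over KD_2 was -0.40 (SE 0.21), and for XBXL10_1g34450 it was 0.02 (SE 0.09), with adjusted p of 0.687 and 0.966 in edgeR.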

How the data were processed

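RNA from dissected rhombomere 1 was extracted with Trizol and made into stranded mRNA libraries, per the labels' protocols. The deposited files hold raw counts per gene ID, 1 library per file, counted from trimmed reads, per the file headers, by featureCounts 2.0.1, per the submitters' processing notes. Which aligner, genome build, annotation and strand setting were used is not given in the sources used here. Whether reads of homeologs (this frog is allotetraploid) or of overlapping genes were credited to the wrong ID was not tested.

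CPM values are counts divided by the library total, times 1000000. Members were taken by the rule stated in the text. All 192 passed filterByExpr, which kept 26712 IDs. These were scaled by TMM and fitted in 1 edgeR quasi-likelihood model of all 12 libraries (edgeR 4.0.16, R 4.3.3, robust, 9 residual degrees of freedom). The code was also run on simulated counts in which no library was set apart from its group. That run does not bear on libraries such as Control replicate 1. Tests were two-sided, with Benjamini-Hochberg adjustment over all IDs tested and a threshold of 0.05. SEs follow from each fold change and its F statistic. No pair of replicates agreed within sampling noise (chi-square per degree of freedom of at least 6.22). The rule for printed IDs was the widest gap and the highest level, and other members were given by rank in gap, level or fold change, chosen after their values were seen, as were those called or apart in a test. Alternatives were other scalings, filters and tools (DESeq2 1.42.0, limma 3.58.1), a replicate block and leaving out libraries. The members and lists were chosen with earlier results of these data known.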

Additional observations from a re-analysis of the deposited data

Results flagged for a closer look

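The values of 15 members given by rank, the summed level of the members and the library totals were searched for a library that stands alone in its group of 4, which made 51 searches. Such a search finds something by chance in about 1 of 20, which is 2.55 of 51, and 2 were found. XBXL10_1g34450 was at 554 CPM in KD_2 replicate 3, against 650 to 655 CPM in the other KD_2 libraries. The member with the largest fold change for the mean of both morpholinos was at 3.20 CPM in KD_1 replicate 4, against 1.11 to 1.45 CPM in the other KD_1 libraries.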

How the results depend on the processing

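The number of members was 192 as reported, 166 with TMM scaling (154 shared) and 172 with DESeq2 size factors (158 shared). A mean of at least 0.5 or 2 CPM, or no minimum, gave 202, 183 and 228. A gap of at least 0.1 on the log2 scale left 34. Leaving out 1 library gave 210 to 1836, and leaving out Control replicate 1 and KD_1 replicate 3 together, chosen after seeing the data, gave 2961. As reported, 4 members were called in the mean of both morpholinos against Control (0.0337% of all IDs in either direction). They were 114 with DESeq2 (5.36%), 0 with limma-voom (0%) and 15 without a filter on low counts (0.0806%). They were 116 without those 2 libraries (18.7%) and 0 to 98 with 1 library left out (0% to 9.86%). For KD_1 against KD_2 the count was 0 at the adjusted p under every alternative run, beside 0% to 0.0412% of all IDs. At an unadjusted p under 0.05 it was 12 as reported (7.35% of all IDs), 7 with only these groups in the fit (5.80%) and 5 to 21 with 1 library left out (3.76% to 12.7%). The median difference ran from -0.0231 (without KD_1 replicate 3) to 0.0227 (without KD_2 replicate 1). Its sign turned without KD_1 replicate 4 (0.0077) or KD_2 replicate 1. For XBXL10_1g34450 this difference, 0.02 as reported, ran from -0.0281 to 0.0924 with 1 library left out and was below 0 without KD_1 replicate 1 or 2 or KD_2 replicate 3. For all these changes the cause was not tested.

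In the fit with a replicate block, 0 members were called in the mean of both against Control (0% of all IDs). In KD_1 against KD_2, 10 members had an unadjusted p under 0.05 in that edgeR fit, beside 7.05% of all IDs. Deviations from the group means correlated at over 0.1 in 4 of 12 same-numbered pairs, and the correlations ran from -0.346 to 0.355. Differently numbered pairs are not given beside them, so whether the numbers pair the libraries cannot be told. Between 1 and 10 CPM, 0 of 73 members had counting intervals apart, and how depth bears on the gaps was not tested.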
